A study of Mus with 9 samples.

Results

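The signalling route from TRAF6 through the IκB kinase (IKK) complex to the transcription factor NF-κB was examined through 10 genes in the mouse hippocampus: Myd88, Irak1, Traf6, Map3k7, Chuk, Ikbkb, Ikbkg, Nfkbia, Rela and Nfkb1. Traf6 and Ikbkb were chosen from their measured averages, which were higher in SAMP8 than in SAMR1 and lower after treatment, so their own direction is a description and not a result. The other members were added as their partners in the pathway, and the question was whether adaptors, kinases and NF-κB subunits followed the same pattern. A member was taken where its symbol stood alone on a probe set of the array, which held for 9 of the 10 genes among 22206 probe sets. The probe set of Irak1 also lists a pair of microRNA genes, and its values are given beside those of the 9 members but outside their counts.

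Hippocampal RNA of male mice was measured in 9 samples on Clariom S Mouse arrays, 3 in each of 3 groups. The control strain, SAMR1, resists accelerated senescence, whereas SAMP8 is prone to it. Both strains were given the vehicle, and a further group of SAMP8 was dosed by mouth with trigonelline (TG), a plant alkaloid, at 5 mg/kg for 30 days. The animals were 16 weeks old, all of them were then tested in the Morris water maze for 8 days, and TG was continued during this time. The vehicle is called saline in the sample records and water in the methods. The values used here are the authors' averages per group on the log2 scale, without the spread between mice. No standard deviation, standard error or test across mice is therefore given for any difference, and every difference below describes 1 pair of averages.

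Toll-like receptors and the interleukin-1 receptor recruit the adaptor MYD88, which gathers IRAK kinases and through them the ubiquitin ligase TRAF6. TRAF6 builds ubiquitin chains that bring in the kinase TAK1 (encoded by Map3k7), and TAK1 activates the IKK complex, made of the kinases IKKα (Chuk) and IKKβ (Ikbkb) and the regulatory subunit NEMO (Ikbkg). IKK phosphorylates IκBα (Nfkbia), whose loss frees dimers of NF-κB such as those of RelA (Rela) and the product of Nfkb1. In the brain the route is known from microglia, astrocytes and endothelium in inflammation, and NF-κB also acts in neurons. Most of these steps run through protein modification, which an array of RNA does not measure.

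A fold limit of 1.1, the limit in the methods of the study and 0.14 on the log2 scale, was used to say that an average was higher or lower. It is a low limit, and many probe sets pass it in each comparison. Over all probe sets the difference between SAMP8 and SAMR1 ran from -0.63 to 0.58 between the 5th and the 95th percentile, and that between TG-treated SAMP8 and SAMP8 from -0.53 to 0.56. Median averages were 6.09 (SAMR1), 6.04 (SAMP8) and 6.07 (TG-treated SAMP8). Probe sets of higher signal tended to be higher in SAMP8 and lower with TG, with median differences of up to 0.14 and down to -0.08 among the 10 upper of 20 classes of signal. Among markers of hippocampal neurons, Neurod6, a gene of pyramidal neurons in hippocampus and neocortex, averaged 14.86 (SAMR1), 14.85 (SAMP8) and 14.88 (TG-treated SAMP8), whereas Prox1, Wfs1 and Calb1 were higher in SAMP8 by 0.59, 0.44 and 0.70. Tcf7l2, a gene of the neighbouring thalamus, averaged 7.72, 8.48 and 8.44. Of the other thalamic and striatal markers, Lef1 and Ppp1r1b were higher in SAMP8 by 0.35 and 0.19, whereas Drd1 and Rgs9 differed by -0.09 and -0.02. The part of neighbouring tissue in the results was not tested.

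Of the 9 members, 4 were higher in SAMP8 than in SAMR1 and 4 were lower, against 33.0% and 32.5% of all probe sets. With TG, 6 members were lower than in nontreated SAMP8 and 2 were higher, against 31.0% and 32.4% of all probe sets. The pattern by which Traf6 and Ikbkb had been chosen, higher in SAMP8 and lower with TG, was shared by Chuk and Nfkbia, which makes 4 of 9 members against 17.5% of all probe sets. Map3k7 and Rela went the opposite way in both comparisons (17.7% of all probe sets), Ikbkg and Nfkb1 were lower in SAMP8 and lower still with TG (4.43%), and Myd88 stayed within the fold limit throughout. Traf6 and Ikbkb were chosen for these directions and are part of the counts of 9. Without them, 2 of 7 members were higher and 4 lower in SAMP8, and 4 were lower and 2 higher with TG. The pattern of Traf6 and Ikbkb was then found for 2 of 7 members (28.6%) and the reverse for 2 of 7. Both comparisons use the same SAMP8 average with opposite sign, so an average that is high in SAMP8 by itself places a gene in this pattern.

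**Figure D1:**
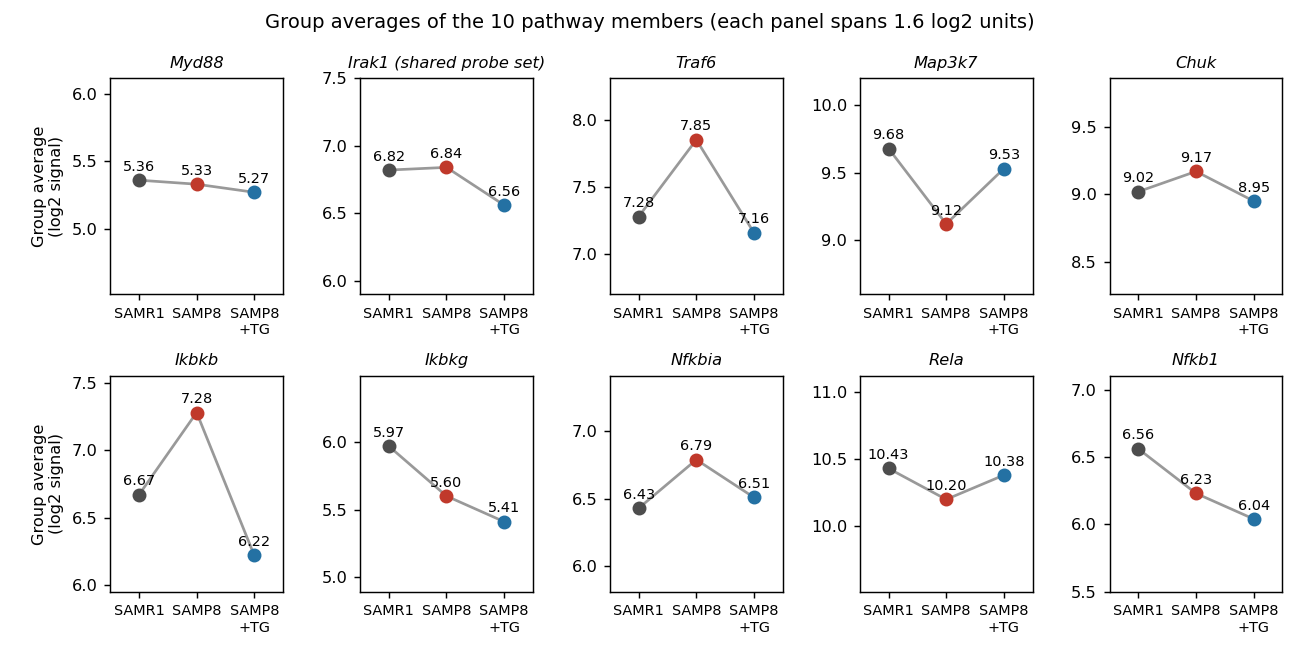
Group averages (y axis, log2 signal, each panel spanning the same number of log2 units) of the 10 genes in SAMR1, SAMP8 and TG-treated SAMP8 (x axis), with 1 point for the authors' average of each group and no error bars because the spread between mice was not analysed here; the lines only join the points. Traf6 and Ikbkb peaked in SAMP8 at 7.85 and 7.28, Map3k7 and Rela were lowest there at 9.12 and 10.20, and Ikbkg and Nfkb1 stepped down from SAMR1 to SAMP8 to TG-treated SAMP8.

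The receptor-proximal members showed little difference between strains. Myd88, on chromosome 9 from 119335934 to 119340018 (GRCm38), had averages of 5.36, 5.33 and 5.27 for SAMR1, SAMP8 and TG-treated SAMP8, the order used throughout. Its differences of -0.03 and -0.06 on the log2 scale lay near the middle of the array, where 44.7% and 39.5% of the probe sets had a lower value. The probe set that lists Irak1, a kinase that passes the signal from MYD88 to TRAF6, on the X chromosome from 74013914 to 74023921, gave 6.82, 6.84 and 6.56. It was thus alike in the strains (difference 0.02) and 0.28 lower with TG, and the array cannot assign that value to Irak1 alone.

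Traf6 and the gene of the next kinase differed in opposite directions. Traf6, on chromosome 2 from 101678420 to 101701668, had averages of 7.28, 7.85 and 7.16, a difference of 0.57 between SAMP8 and SAMR1 and of -0.69 with TG. In TG-treated SAMP8 it was 0.12 below SAMR1, which is within the fold limit. Map3k7, which encodes TAK1 and lies on chromosome 4 from 31963492 to 32023470, had averages of 9.68, 9.12 and 9.53. It was 0.56 lower in SAMP8 than in SAMR1, a 1.47-fold difference, and 6.6% of the probe sets lay lower. With TG it was 0.41 higher than in nontreated SAMP8 and 10.2% of the probe sets lay higher. Its TG average remained 0.15 below that of SAMR1. The genes of the ubiquitin ligase and the kinase it engages thus ran in opposite directions relative to SAMP8, while both averages lay below SAMR1 with TG.

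The 3 genes of the IKK complex did not share a pattern. Ikbkb, on chromosome 8 from 22659205 to 22706589, had averages of 6.67, 7.28 and 6.22, and its difference of -1.06 with TG (2.08-fold) was the largest among the members. Its TG average lay 0.45 below that of SAMR1. Chuk, encoding the other kinase of the complex and lying on chromosome 19 from 44073334 to 44107505, had averages of 9.02, 9.17 and 8.95. The strain difference of Chuk was 0.15, barely over the fold limit, and became 0.01 once the median of its class of signal was subtracted. With TG the average of Chuk was 0.22 lower. Ikbkg, the gene of NEMO on the X chromosome from 74393233 to 74456792, had averages of 5.97, 5.60 and 5.41. It was 0.37 lower in SAMP8 and a further 0.19 lower with TG, and only 5.4% of the probe sets were further below SAMR1 than its -0.56.

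Averages of the NF-κB subunits ran against those of Traf6 and Ikbkb in the strain comparison. Rela, on chromosome 19 from 5637442 to 5648134, had averages of 10.43, 10.20 and 10.38. It was 0.23 lower in SAMP8, 0.18 higher with TG and within 0.05 of SAMR1 after treatment. Nfkb1, on chromosome 3 from 135584655 to 135691969, had averages of 6.56, 6.23 and 6.04, which is 0.33 lower in SAMP8 and a further 0.19 lower with TG. The inhibitor went the other way. Nfkbia, on chromosome 12 from 55489409 to 55492647, is itself a target gene of NF-κB and closes a feedback loop on it. Its averages were 6.43, 6.79 and 6.51, which is 0.36 higher in SAMP8, 0.28 lower with TG and 0.08 above SAMR1 after treatment. In SAMP8, then, the gene of the inhibitor was higher and the genes of both subunits were lower.

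**Figure D2:**
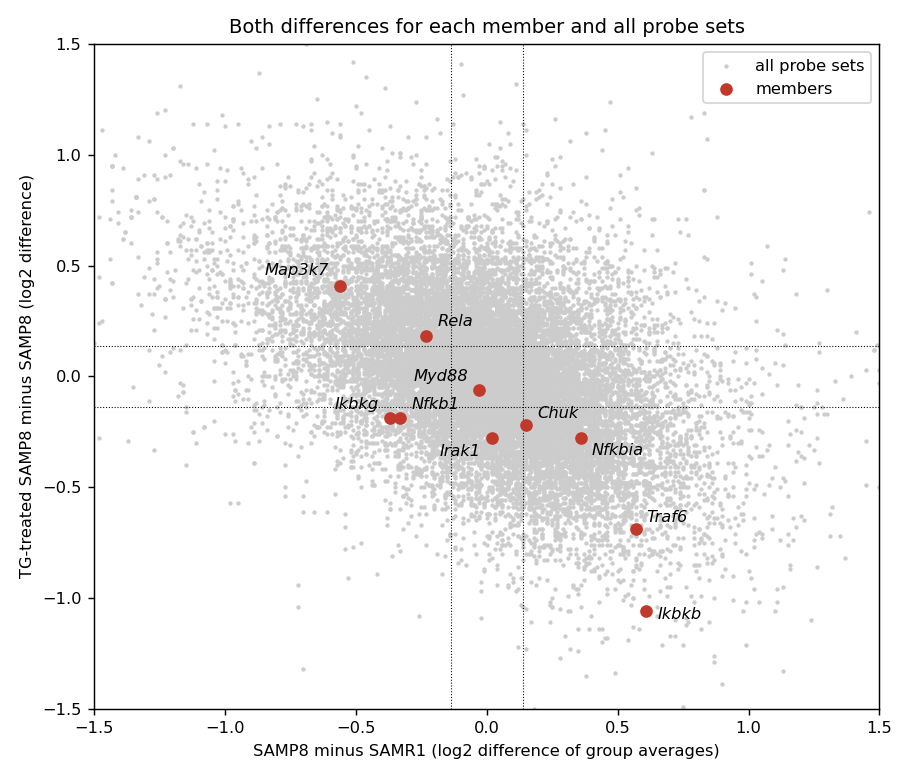
Log2 difference between SAMP8 and SAMR1 (x axis) against that between TG-treated SAMP8 and SAMP8 (y axis) for the members (labelled points, Irak1 on its shared probe set) and all probe sets (small points); dotted lines mark the fold limit of 1.1, and 147 probe sets lie outside the plotted range of 1.5 in either direction. The slope of the cloud includes what the shared SAMP8 average gives by itself. Ikbkb (0.61 and -1.06) and Traf6 (0.57 and -0.69) lie to the lower right, and 0.2% and 2.1% of all probe sets had a lower difference with TG. Map3k7 (-0.56 and 0.41) lies to the upper left, inside the cloud, and 10.2% had a higher difference with TG. The other members lie nearer the centre.

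At a fold limit of 1.5 the strain comparison kept Ikbkb alone among the members as higher in SAMP8, against 5.00% of all probe sets, and Traf6 was just under the limit at 1.48-fold. Ikbkb and Traf6 were the members lower by over 1.5-fold with TG (3.74% of all probe sets), and Ikbkb alone passed in both directions (1.04%). Traf6 and Ikbkb had been chosen for these directions, so their place against these shares is a description and not a result. None of the 7 members added as partners passed 1.5-fold in either comparison. Their median difference was -0.23 between the strains and -0.19 with TG, beside 0.00 and 0.01 over all probe sets.

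The TG-treated group was set against SAMR1 through the averages of both tables. Ikbkb, Ikbkg, Nfkb1 and Map3k7 were lower than in SAMR1, 4 of 9 members against 33.3% of all probe sets, and 0 of 9 were higher, against 31.6%. Traf6, Chuk, Rela, Nfkbia and Myd88 lay within the fold limit of their SAMR1 averages. Since no spread between mice was analysed, an average within the limit is not shown to be equal to that of SAMR1.

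The members were then placed in the wider pathway, of which 104 further genes were listed by role and all were found on the array. Of these, 42 were higher and 27 lower in SAMP8 (40.4% and 26.0%), and 34 were higher and 42 lower with TG (32.7% and 40.4%). The pattern of Traf6 and Ikbkb was found for 24 of them (23.1%) and the reverse for 18 (17.3%). At a limit of 0.32 on the log2 scale the pattern was found for 6 of the 104 (5.77%) against 6.22% of all probe sets, so that its surplus over the array was seen at the low limit and not at the higher one. The median difference over the 104 genes was 0.05 between the strains and -0.01 with TG. Beside the list counts below, 33.0% of all probe sets were higher and 32.5% lower in SAMP8, and 32.4% higher and 31.0% lower with TG. The pattern was found for 17.5% of all probe sets and the reverse for 17.7%.

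**Figure D3:**
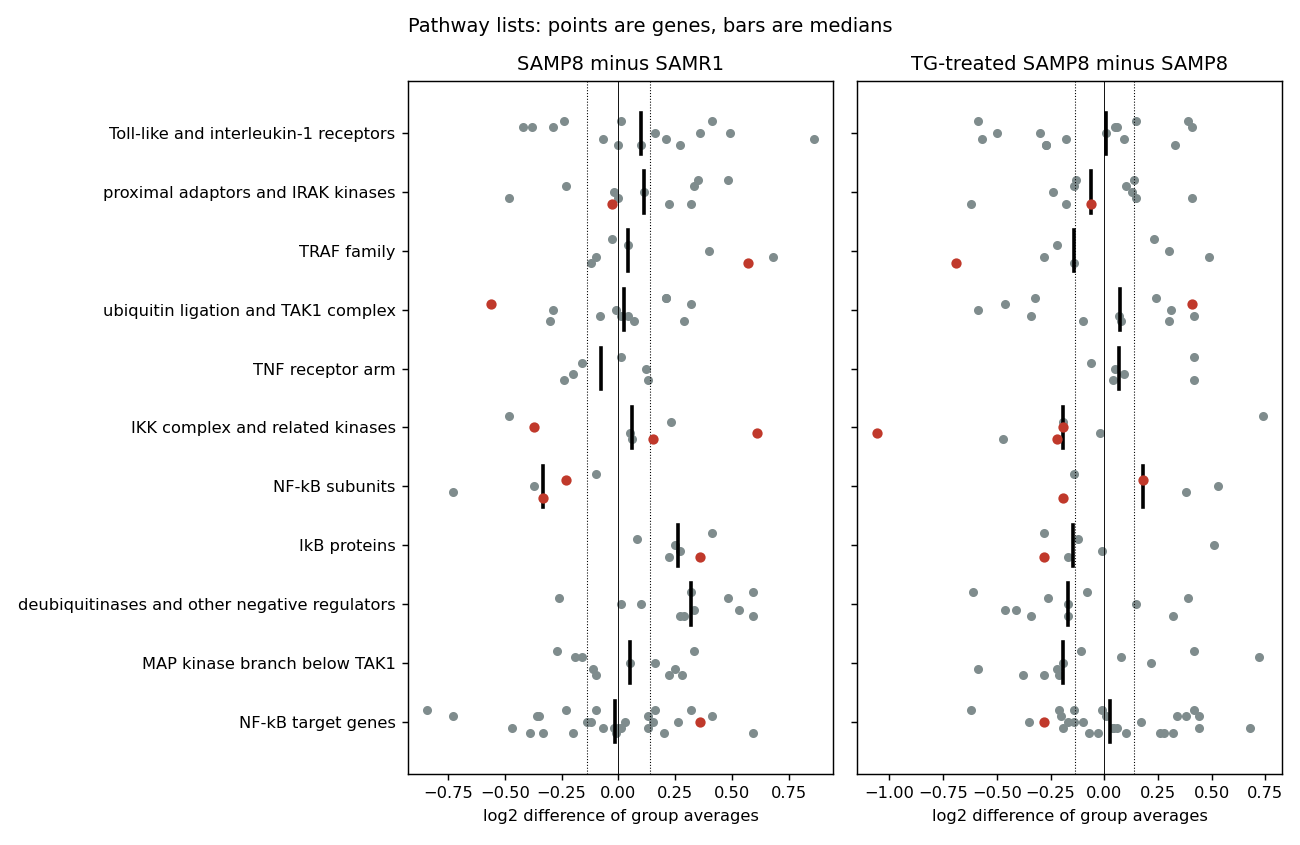
Log2 differences of group averages (x axes) for the genes of 11 lists of pathway roles (rows), between SAMP8 and SAMR1 on the left and between TG-treated SAMP8 and SAMP8 on the right; each point is a gene, red points are members, black bars are list medians and dotted lines mark the fold limit. The bar of the NF-κB subunits lies at -0.33 on the left and 0.18 on the right, whereas the negative regulators have theirs at 0.32 and -0.17.

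Among the receptors that feed the pathway, 7 of 15 genes were higher and 4 lower in SAMP8, and 4 were higher and 7 lower with TG. Tlr7, a receptor of single-stranded RNA, had averages of 5.57, 6.43 and 5.86, a strain difference of 0.86 and a difference of -0.57 with TG. Il1r1, the signalling receptor of interleukin-1, had averages of 7.54, 7.95 and 7.36 and was 0.59 lower with TG, the lowest difference of the list. Tlr8 was 0.49 higher in SAMP8 and 0.50 lower with TG, at averages between 3.35 and 3.85 and so among the 25% of probe sets of lowest mean signal, as were 8 of the 15 receptor genes. Cd14, a coreceptor for bacterial lipopolysaccharide, went the reverse way with averages of 5.96, 5.54 and 5.95. The pattern of Traf6 and Ikbkb was found for 5 of the 15 receptor genes and the reverse for 2.

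Of 11 adaptors and IRAK kinases, 5 were higher and 2 lower in SAMP8. Irak2 had averages of 6.92, 7.40 and 7.54 and was higher in both steps. Tirap, which bridges some Toll-like receptors to MYD88, had averages of 5.56, 5.08 and 5.49. Peli3, one of the Pellino ubiquitin ligases that act on IRAK proteins, was 0.32 higher in SAMP8 and 0.62 lower with TG. Within the TRAF family, Traf6 was the gene with the lowest difference with TG, and Traf2 was the one with the highest. Traf2, an adaptor of TNF receptors, had averages of 5.08, 5.76 and 6.25, and Traf3 had 8.26, 8.66 and 8.96. Traf2 and Traf3 were therefore above SAMR1 in SAMP8, as Traf6 was, but above SAMP8 with TG, where Traf6 was below it. Traf1 differed by -0.12 between the strains, within the fold limit, and by -0.14 with TG.

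The partners of TRAF6 and TAK1 did not follow Traf6 as a group. Of 12 genes of ubiquitin ligation and the TAK1 complex, 4 were higher and 3 lower in SAMP8, and 5 were higher and 4 lower with TG. Tifa, an adaptor that binds TRAF6, had averages of 5.62, 5.94 and 5.48, a pattern like that of Traf6. Tab3, a ubiquitin-binding partner of TAK1, was alike in the strains (difference -0.01) and 0.59 lower with TG. Sharpin, a subunit of the ligase that builds linear ubiquitin chains, was 0.42 higher with TG. Among the kinases related to IKK, Ikbke stood out against Ikbkb with averages of 5.23, 4.75 and 5.49, which is 0.48 lower in SAMP8 and 0.74 higher with TG.

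All 5 NF-κB subunit genes had lower averages in SAMP8 than in SAMR1, 4 of them by more than the fold limit and Relb by 0.10. Without a limit, 49.0% of all probe sets had a lower average in SAMP8 and 49.5% a higher one. Nfkb2 had averages of 4.49, 3.76 and 4.14, and its strain difference of -0.73 was the lowest of the list. The mean signals of Nfkb2 and Relb were among the lowest 25% of the array. Rel, encoding c-Rel, had averages of 6.93, 6.56 and 7.09 and was 0.53 higher with TG. The IκB family had the opposite sign in the strain comparison. All 6 of its genes had higher averages in SAMP8, 5 of them over the fold limit, from 0.08 for Nfkbie to 0.41 for Nfkbiz. Of the 6, 2 were among the 25% of probe sets of lowest mean signal, Nfkbie being 1 of them. With TG, 3 of the 6 were lower and 1, Nfkbid, was higher by 0.51.

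Genes whose products restrain the pathway had the highest strain median of the 11 pathway lists, 0.32. Of 11, 8 were higher and 1 lower in SAMP8, against 33.0% and 32.5% of all probe sets. With TG, 7 were lower and 3 higher, against 31.0% and 32.4%. The pattern of Traf6 and Ikbkb was found for 6 of the 11, against 17.5%. Cyld, a deubiquitinase that removes chains built by TRAF6, had averages of 10.66, 11.19 and 10.78. Tax1bp1, a partner of the editing enzyme TNFAIP3, had averages of 11.37, 11.96 and 11.35, and Tnip1, another partner, had 6.99, 7.32 and 6.86. Tnfaip3 itself was higher in both steps, with averages of 5.20, 5.79 and 6.11, which is 0.91 above SAMR1 with TG. Tnip3 was 0.26 lower in SAMP8 and 0.39 higher with TG. With each difference taken relative to its class of signal, the medians of this list were 0.27 and -0.11, and the strain median of the IκB list, at 0.31, was then the higher one.

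The genes higher in SAMP8 and higher still with TG numbered 7 of the 104 (6.73%), against 5.51% of all probe sets and 0 of the 9 members. They were Irak2, Traf2, Traf3, Sqstm1, Nfkbid, Tnfaip3 and Mapk11, of which Traf3, Sqstm1 and Mapk11 were named with their values known, as was Lcn2 here. Ptgs2 and Lcn2 were lower in both steps, as Ikbkg and Nfkb1 were, which makes 2 of the 104 (1.92%) against 4.43% of all probe sets. Lcn2 had averages of 3.48, 3.34 and 2.99, and 3.3% of the probe sets had a lower mean signal. Its strain difference of -0.14 was barely over the fold limit.

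Target genes of NF-κB showed no common direction. Of 28, 8 were higher and 10 lower in SAMP8, and 10 were higher and 9 lower with TG, with medians of -0.01 and 0.03. The list shares Nfkbia, Nfkb2, Relb, Tnfaip3, Birc3 and Traf1 with other pathway lists, and Nfkbia is also a member. The pattern of Traf6 and Ikbkb was found for 3 of the 28 and the reverse for 7. Tnf had averages of 2.66, 2.86 and 2.83, and 0.1% of the probe sets had a lower mean signal. Il6 stood at 3.45, 3.71 and 3.54, which is 0.26 higher in SAMP8 and 0.17 lower with TG, and 8.0% of the probe sets had a lower mean signal. Il1b stood at 5.00, 5.00 and 4.81. Ccl2, a chemokine that attracts monocytes, was 0.84 lower in SAMP8 and 0.42 higher with TG, the reverse of the pattern. Ptgs2, the inducible cyclooxygenase gene, was 0.23 lower in SAMP8 and 0.62 lower again with TG. Sod2, the mitochondrial superoxide dismutase gene, was 0.68 higher with TG. Of the 28, 16 lay among the 25% of probe sets of lowest mean signal.

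Markers of other cell types were read in the same way, beside the 17.5% of all probe sets that were higher in SAMP8 and lower with TG and the 17.7% with the reverse. In bulk RNA, fewer cells of a type and less RNA per cell cannot be told apart. By the share of their markers past the fold limit, the lists of the vessel wall had the pattern of Traf6 and Ikbkb most often. All 5 endothelial markers had it, with mean averages of 7.84, 8.28 and 7.84 over the list, and Slco1a4, a transporter of brain endothelium, had averages of 11.06, 11.62 and 10.62. It was also found for 4 of 5 markers of smooth muscle and pericytes (mean averages 6.57, 7.26 and 6.72), among which Acta2, the actin of smooth muscle, had 5.52, 7.71 and 5.54. Tagln, another smooth muscle gene, ran the reverse way at 4.74, 3.91 and 4.62. The microglial markers were split, with 4 of 10 in the pattern, 3 reversed and a strain median of 0.00. Aif1 stood at 5.71, 7.22 and 6.78, Trem2 at 5.51, 4.81 and 5.21, and the defining marker Tmem119 at 5.64, 5.56 and 5.53. The meningeal markers were split between the strains, with 3 of 8 in the pattern, 2 reversed and a strain median of -0.01. With TG, 5 of 8 were lower and 2 higher, against 31.0% and 32.4% of all probe sets. Their median with TG was -0.46, the lowest of the marker lists. Ptgds had averages of 9.39, 10.26 and 7.57, Igf2 had 7.09, 8.67 and 6.78, and Foxc1 had 5.46, 6.35 and 5.57. Lum had 7.42, 6.82 and 7.28, the reverse, and Dcn was lower in both steps at 10.66, 10.15 and 9.38. Of the hippocampal neuron markers, 3 of 4 had the pattern, with Prox1 of granule cells at 11.26, 11.85 and 11.00. The median differences of this list were 0.52 between the strains and -0.43 with TG, beside 0.52 and -0.35 for endothelium. The pattern was found for 1 of 7 astrocyte, 2 of 8 general neuronal, 0 of 6 oligodendrocyte, 2 of 5 choroid plexus and 1 of 5 thalamic and striatal markers. The order of the lists depended on the limit. Past 0.32 on the log2 scale, Slco1a4 was the only endothelial marker with the pattern. Acta2, Myh11 and Pdgfrb of smooth muscle and pericytes kept it, as did Prox1, Wfs1 and Calb1. The hippocampal neuron list then had the highest share. The part of the listed cell types in the averages of Traf6, Ikbkb and the other members was not tested.

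**Figure D4:**
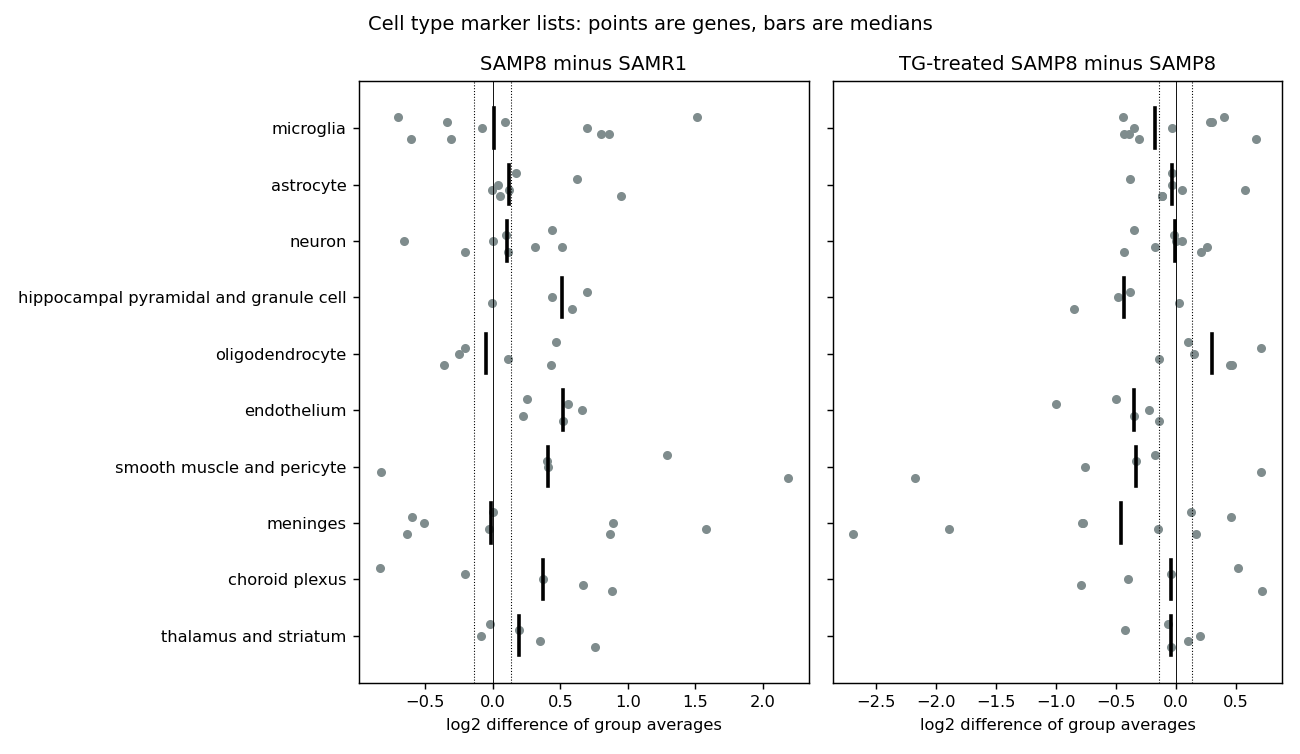
Log2 differences of group averages (x axes) for the genes of 10 lists of cell type markers (rows), between SAMP8 and SAMR1 on the left and between TG-treated SAMP8 and SAMP8 on the right; points are genes, black bars are medians and dotted lines mark the fold limit. Endothelium has its bar at 0.52 on the left and -0.35 on the right, and the meninges reach -2.69 with TG (Ptgds).

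The genes most like Traf6 and Ikbkb were found by the Euclidean distance of the pair of differences over all probe sets with 1 gene symbol, a measure that rests on 3 averages. Nearest to Traf6 were Pln, Timp2, Bmp1, Aff1 and Htr2a, at distances of 0.020 to 0.030 on the log2 scale. Nearest to Ikbkb were Ank2, Lmf2, Anxa11, Gm17768 and Adam5, at 0.045 to 0.078. Among the members, Ikbkb was the nearest to Traf6 at 0.372, followed by Nfkbia at 0.461 and Chuk at 0.630, and Map3k7 was the farthest at 1.577. Traf6 and Ikbkb were chosen by these same differences, so their nearness to each other follows in part from that choice. In the order of all genes by distance from Traf6, Ikbkb came at place 1280 and Nfkbia at place 2070. In the order from Ikbkb, Traf6 came at place 213 and Nfkbia at place 2558.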

How the data were processed

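Total RNA of the hippocampus was labelled and hybridized to Clariom S Mouse arrays, and the authors normalized the intensities by SST-RMA in the Transcriptome Analysis Console. The deposited tables, 1 for each of 2 comparisons, hold the authors' group averages as log2 signal with 2 decimals, annotated on mm10. The SAMP8 averages were identical in both tables. The tables' columns of fold change, p-value and adjusted p-value were not used, and values per array were not analysed here, so no test was run and precision is limited by the 3 arrays per group. Sample records also carry a description of a macrophage cell line, which was not used.

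Differences of averages were computed in Python 3.11.15 with pandas 2.3.3 and numpy 2.4.6 and counted past a fold limit of 1.1, with 0.32 on the log2 scale, 1.5-fold and 2-fold as alternatives. Counts were checked on simulated data. Every list gene had 1 probe set, matched by exact symbol except Irak1. The list of hippocampal neuron markers lost 1 gene in matching. Gene positions are from RefSeq (GRCm38). Named were the members, the extremes of each list, genes with the pattern past 0.32, Nfkbia, Tnfaip3, Tnf, Il6 and Il1b, and the 5 nearest genes, while marker genes were picked with their values in view. The members and lists were chosen with earlier results of these data known.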

Additional observations from a re-analysis of the deposited data

How the results depend on the processing

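Centring each difference on the median of all probe sets changed no count of members (4 higher in SAMP8, 6 lower with TG, 4 with both). Centring within 20 classes of signal moved 3 strain differences by over 0.1, to 0.01 for Chuk, -0.36 for Rela and -0.70 for Map3k7, and left 3 members higher in SAMP8 and 3 with both directions. It also took the strain median of the list of ubiquitin ligation and the TAK1 complex to -0.08 and that of the MAP kinase list to -0.09. The counts depended most on the fold limit. Past 0.32 on the log2 scale, 2 members were lower with TG and 2 had both directions (14.2% and 6.22% of all probe sets). These were Traf6 and Ikbkb, chosen for this pattern, and 0 of the 7 other members had either, while of the 104 other genes 17 were higher in SAMP8, 16 lower with TG and 6 both. At 1.5-fold the members numbered 1 higher in SAMP8, 2 lower with TG and 1 both, and the other genes 4, 6 and 1. For all probe sets these shares were 5.00%, 3.74% and 1.04%. At 2-fold, 0 members were higher in SAMP8, 1 was lower with TG and 0 were both, and the other genes numbered 0, 0 and 0. Few probe sets of the array passed that limit (0.797%, 0.324% and 0.0360%). Dropping the dimmest 25% of probe sets, or adding the Irak1 probe set (added after seeing the data, as was the class centring of the lists), kept each count within 1.5 times its value. No paired analysis was possible because the values are averages per group, and no mouse could be left out in turn for the same reason.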

Other observations

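Below TAK1 the pathway also branches to the MAP kinases. Of 11 genes, 5 were higher and 3 lower in SAMP8, and 3 were higher and 6 lower with TG. For these counts and those below, 33.0% of all probe sets were higher and 32.5% lower in SAMP8. With TG, 32.4% were higher and 31.0% lower. Map2k7, a kinase that activates JNK, had averages of 10.18, 10.02 and 10.74 in SAMR1, SAMP8 and TG-treated SAMP8. Mapk10, the neuronal JNK gene, ran the other way with averages of 15.21, 15.46 and 14.87, and Mapk8, another JNK gene, had the highest strain difference of the list at 0.33. Mapk13, a p38 family gene, was 0.27 lower in SAMP8 and 0.42 higher with TG.

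In the TNF receptor arm, which reaches IKK without TRAF6, 0 of 6 genes were higher and 3 were lower in SAMP8, and 2 were higher and 0 lower with TG. Tnfrsf1a, the main signalling receptor of TNF, had averages of 5.61, 5.37 and 5.79. Ripk1, the kinase scaffold of that receptor, had 7.59, 7.43 and 7.37, and Birc3, a ubiquitin ligase of the complex, had 4.82, 4.95 and 4.99.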
